A study of Mus musculus with 4 samples.

Results

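The granule genes *Gzma*, *Gzmb*, *Gzmk*, *Gzmm*, *Prf1*, *Srgn* and *Nkg7* were followed through 4 single-cell libraries of mouse liver. These 7 genes were taken by symbol from the 31053 genes in the matrices. Liver mononuclear cells came from C57BL/6 mice of 8 to 10 weeks, were enriched on a Percoll gradient, and were profiled with the 10X Genomics 5′ gene expression kit, in which each RNA molecule is counted once by its unique molecular identifier (UMI). Naïve mice received no concanavalin A (ConA), a plant lectin that sets off a T cell driven hepatitis. The other groups were taken 24 hours after ConA, and were given the vehicle corn oil (ConA+Veh), TCDD (ConA+TCDD) or FICZ (ConA+FICZ). TCDD and FICZ both bind the aryl hydrocarbon receptor (AhR), and TCDD was given 1 hour after ConA, while the dose and time of FICZ were not given in the sources used here. Each group was 1 library, and the number of mice behind a library was not given, so no p-value could be had. Every interval below is a 95% interval for counting error in that library alone, and does not cover differences between mice.

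Cytotoxic lymphocytes kill by releasing granules onto a target cell. Perforin, the product of *Prf1*, forms pores in the target membrane, and granzymes are serine proteases that then enter the target. Granzyme B (*Gzmb*) cuts after aspartate and starts apoptosis, granzyme A (*Gzma*) and granzyme K (*Gzmk*) are tryptases encoded side by side, and granzyme M (*Gzmm*) cuts after methionine or leucine. Serglycin (*Srgn*) is the proteoglycan on which granule proteins are packed, and it is made by many blood cells besides lymphocytes. *Nkg7* encodes a membrane protein of cytotoxic granules that takes part in their release. The liver holds many natural killer (NK) cells, type 1 innate lymphoid cells and NKT cells, all of which can carry granule RNA without injury.

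In the GENCODE annotation of GRCm38, the build named for these files (mm10), *Gzma* (ENSMUSG00000023132) lay at chr13:113093825-113100981 (minus strand) and *Gzmk* (ENSMUSG00000042385) at chr13:113171608-113225908 (minus strand), next to each other on chromosome 13. *Gzmb* (ENSMUSG00000015437) lay at chr14:56258838-56262260 (minus strand). *Prf1* (ENSMUSG00000037202) lay at chr10:61297833-61304680 (plus strand), *Srgn* (ENSMUSG00000020077) at chr10:62493833-62527451 (minus strand) and *Gzmm* (ENSMUSG00000054206) at chr10:79689020-79695261 (plus strand), all on chromosome 10. *Nkg7* (ENSMUSG00000004612) lay at chr7:43437073-43438249 (plus strand). All were protein coding, and only *Gzmk* was overlapped by another gene, *Esm1*, on the opposite strand inside an intron and touching no exon of *Gzmk*.

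The promoters of *Gzma*, *Gzmb*, *Prf1* and *Nkg7* are shown because these genes had their highest level in the same cells, as described below. Each sequence runs 5′ to 3′ from 250 bases before to 50 bases after the RefSeq start (GRCm38.p6), and capitals mark letters that matched a motif searched on both strands. The motifs were the AhR core GCGTG, the STAT site TTCNNNGAA, the RUNX site AACCACA and the T-box site AGGTGTGA.
Gzma, chr13:113100932-113101231, minus strand: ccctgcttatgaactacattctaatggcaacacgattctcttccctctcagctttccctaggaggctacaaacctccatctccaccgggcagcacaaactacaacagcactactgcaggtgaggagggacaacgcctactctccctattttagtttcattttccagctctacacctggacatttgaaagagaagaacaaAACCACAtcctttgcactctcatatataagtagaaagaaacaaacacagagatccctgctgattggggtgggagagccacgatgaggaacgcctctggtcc
Gzmb, chr14:56262285-56262584, minus strand: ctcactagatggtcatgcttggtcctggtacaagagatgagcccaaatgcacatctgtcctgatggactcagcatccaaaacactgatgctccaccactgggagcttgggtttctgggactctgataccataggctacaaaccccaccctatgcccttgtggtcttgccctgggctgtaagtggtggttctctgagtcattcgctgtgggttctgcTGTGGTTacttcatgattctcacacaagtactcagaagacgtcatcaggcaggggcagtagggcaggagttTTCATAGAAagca
Prf1, chr10:61297586-61297885, plus strand: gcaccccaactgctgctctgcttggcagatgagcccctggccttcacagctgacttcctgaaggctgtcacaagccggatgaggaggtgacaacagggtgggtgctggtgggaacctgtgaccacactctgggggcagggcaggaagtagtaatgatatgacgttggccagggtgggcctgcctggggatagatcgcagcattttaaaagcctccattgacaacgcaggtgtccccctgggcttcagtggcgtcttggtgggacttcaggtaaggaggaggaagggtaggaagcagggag
Nkg7, chr7:43436888-43437187, plus strand: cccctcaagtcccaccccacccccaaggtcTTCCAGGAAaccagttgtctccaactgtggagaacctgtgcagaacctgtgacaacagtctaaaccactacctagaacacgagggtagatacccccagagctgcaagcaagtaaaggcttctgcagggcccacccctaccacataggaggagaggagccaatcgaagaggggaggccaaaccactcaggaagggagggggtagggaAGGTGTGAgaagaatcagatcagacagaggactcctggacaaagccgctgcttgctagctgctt

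*Gzma* held a RUNX match starting 51 bases before the start site and *Gzmb* held one 34 bases before it, on the other strand. *Gzmb* also had a STAT match, at base 38 after the RefSeq start. The GENCODE gene begins at 56262260 on the minus strand and this window ends at 56262285. The whole *Gzmb* window thus lies before the GENCODE gene, and its positions hold for the RefSeq start only. *Nkg7* had a STAT match at 220 bases and a T-box match at 14 bases before the start site, and *Prf1* matched none of these letters. The GENCODE gene of *Nkg7* begins at 43437073, before the RefSeq start used here. The T-box letters of *Nkg7* thus lie inside the GENCODE gene, and both positions hold for the RefSeq start only. Among all 32817 windows of this length, 5.27% held the RUNX letters, 8.29% the STAT letters, 1.27% the T-box letters and 32.4% the AhR core. Of the 9 windows of the 7 members, 1 held the AhR core, that of *Gzmm* at 152 bases before its first start site. A match is a description of letters in a window and does not show binding.

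The libraries held 2086 cells in Naïve, 2779 in ConA+Veh, 1880 in ConA+TCDD and 2555 in ConA+FICZ, with medians of 2161, 3984, 3762 and 3147 UMIs per cell. Naïve was the shallowest library. Pairs of libraries shared 4 to 15 cell barcodes, and leaving out those cells changed no count of members past 2-fold. Cells were placed by marker UMIs that did not include any granule gene. The NK gate (at least 2 of *Ncr1*, *Klrb1c*, *Klre1*, *Klra8*, *Klra4* and *Klri2* without CD3 RNA, which also takes in type 1 innate lymphoid cells) held 120, 200, 156 and 159 cells in Naïve and then in the ConA libraries with vehicle, TCDD and FICZ. In the same order the CD8 gate held 157, 348, 243 and 221 T cells, the CD4 gate 67, 110, 77 and 76, and the innate-like T gate 54, 53, 42 and 50. The innate-like T gate asked for NKT or γδ receptor genes or the transcription factor gene *Zbtb16*, and for no *Cd8b1*. NKT type cells could thus enter on *Zbtb16* alone. T cells with RNA of neither or both coreceptors made up the unresolved T gate. The NK gate carried *Tyrobp*, a signalling adaptor that was no gate gene, at 2553 to 3159.5 CPM (UMIs of a gene per 1000000 UMIs of the gated cells), while the T cell receptor gene *Trac* was at 10.4 to 37.1 CPM. In the CD8 gate the same genes stood at 4.43 to 32.6 CPM and at 258 to 288 CPM.

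B cells are not a usual source of granzymes, so UMIs there were taken as the background that free RNA and doublets can give. In the B gate *Gzma* was at 2.65 CPM in Naïve, 26.5 in ConA+Veh, 14.9 in ConA+TCDD and 22.8 in ConA+FICZ. For *Gzmb* the background was 3.4 CPM in Naïve, 32 in ConA+Veh, 19.5 in ConA+TCDD and 7.92 in ConA+FICZ, and for *Nkg7* it was 2.65 CPM in Naïve, 27.7 in ConA+Veh, 17.2 in ConA+TCDD and 12.8 in ConA+FICZ. The background of all of these was lowest in Naïve, so T cell levels are read against the B gate of their own library. Mononuclear phagocytes stood at or under 15.3 CPM of *Gzma* in every library. The B gate was not the highest background in ConA+Veh. There, 64 erythroid cells were at 381 CPM of *Gzma* (255 to 548), 158 CPM of *Gzmb* and 105 CPM of *Nkg7*. Endothelial cells and neutrophils of that library were at 58.6 and 50.1 CPM of *Gzma*. In ConA+FICZ they were at 6.35 and 9.33 CPM, under the B gate. In plasmacytoid dendritic cells of ConA+Veh, 142 of 143 *Gzma* UMIs came from 1 cell, which also had 17 UMIs of the NK gate genes. *Prf1* stayed at or under 4.02 CPM in B cells of every library. Shares of cells with a UMI are given after each cell was thinned to 1000 UMIs, since depth differed. The share of B cells thinned in this way that held a *Gzma* UMI was 0.095% in Naïve, 2.62% in ConA+Veh, 2.67% in ConA+TCDD and 1.2% in ConA+FICZ, at median depths of 2124, 4200, 3438 and 3534 UMIs before thinning, against 1796, 2552, 2599.5 and 2328 in the NK gate.

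**Figure D1:**
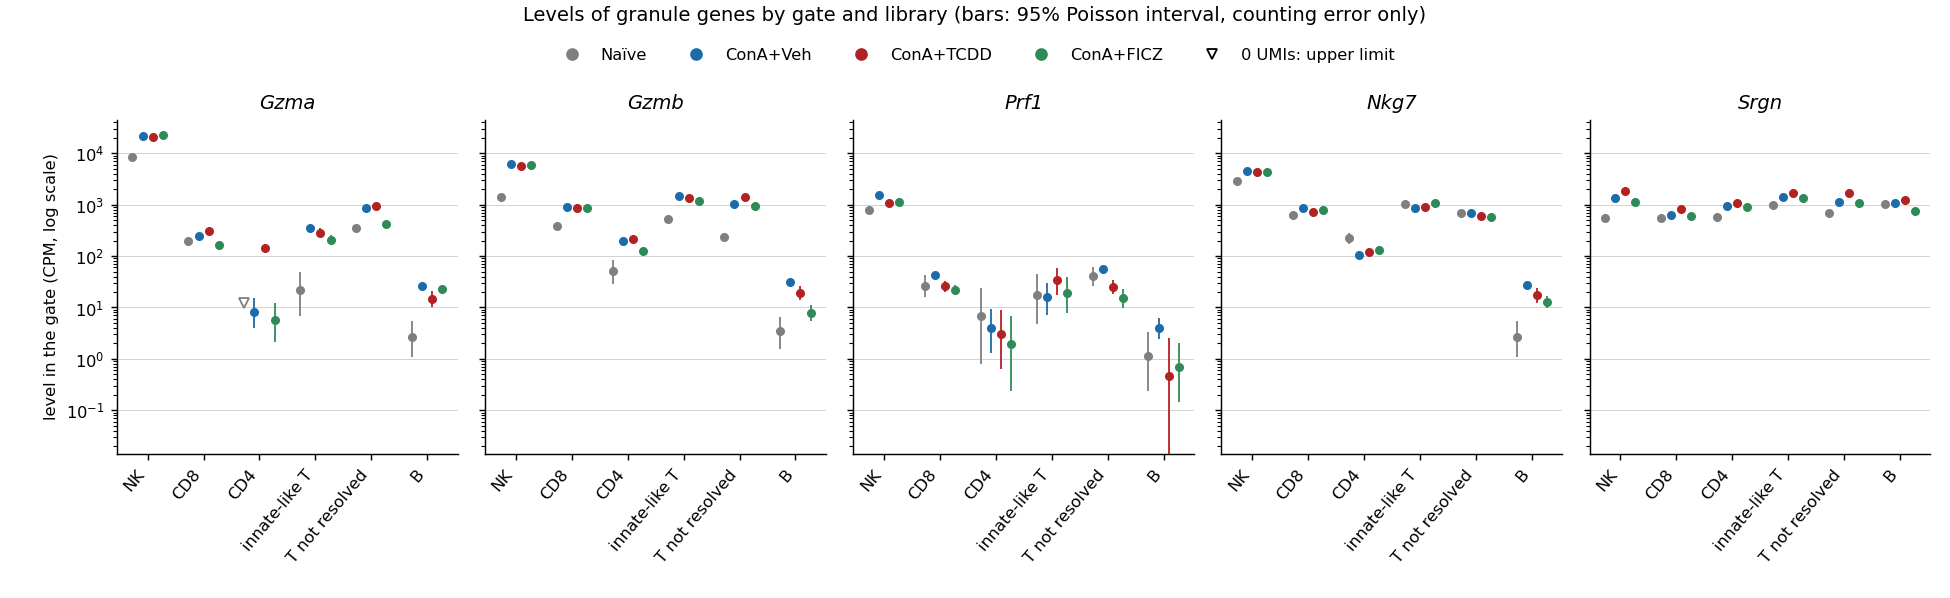
Level of 5 granule genes (CPM, log axis) in 6 gates, with 1 point per library and bars for the 95% Poisson interval. *Gzma*, *Gzmb*, *Prf1* and *Nkg7* are highest in the NK gate of every library and lowest in the B or CD4 gate, while *Srgn* lies between 557 and 1822 CPM in all gates drawn.

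In the NK gate, the granule genes were abundant in Naïve and more so 24 hours after ConA. *Gzma* stood at 8571 CPM in Naïve (8206 to 8948), 21488 CPM in ConA+Veh (21139 to 21842), 21158 CPM in ConA+TCDD (20769 to 21553) and 22446 CPM in ConA+FICZ (22028 to 22871). All 3 ConA libraries lay above Naïve and their levels differed among themselves by little next to this gap. The log2 ratio of ConA+Veh over Naïve was 1.33 (1.26 to 1.39), a 2.51-fold difference.

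*Gzmb* had the largest difference of the tested members in these cells. It was at 1427 CPM in Naïve (1281 to 1586), 6326 CPM in ConA+Veh (6137 to 6519), 5704 CPM in ConA+TCDD (5502 to 5910.2) and 5913 CPM in ConA+FICZ (5699 to 6133). The ConA+Veh level was 4.43 times that of Naïve, a log2 ratio of 2.15 (1.99 to 2.31). Perforin differed less, with *Prf1* at 779.6 CPM in Naïve (672 to 899), 1531 CPM in ConA+Veh (1439 to 1628), 1072 CPM in ConA+TCDD (985 to 1163) and 1106 CPM in ConA+FICZ (1014 to 1203), and a log2 ratio of ConA+Veh over Naïve of 0.97 (0.75 to 1.21), just short of 2-fold. Among the packaging and release genes, *Srgn* was at 557 CPM in Naïve (467 to 659), 1354 CPM in ConA+Veh (1267 to 1445), 1822 CPM in ConA+TCDD (1709 to 1940.01) and 1137 CPM in ConA+FICZ (1044 to 1235). Its ratio over Naïve was 1.28 (1.02 to 1.55) in ConA+Veh. *Nkg7* was at 2912 CPM in Naïve (2701 to 3135), 4549 CPM in ConA+Veh (4389 to 4713), 4346 CPM in ConA+TCDD (4171 to 4527) and 4364 CPM in ConA+FICZ (4181 to 4554), and its ratio was 0.64 (0.52 to 0.76). Naïve held the lowest level of each of these 5 genes. Of the 5 members that had 100 UMIs or more over both libraries, 3 were more than 2-fold higher in ConA+Veh, and none was lower, where 8.17% of the 1297 genes counted that often were higher by as much and 5.94% lower. The median log2 ratio was 1.28 over these 5 and 0.13 over all genes.

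Granzyme K and granzyme M, in contrast, were nearly missing from the NK gate. *Gzmk* had 0 UMIs in Naïve, 15 in ConA+Veh, 4 in ConA+TCDD and 7 in ConA+FICZ. The 0 in Naïve allows up to 12.4 CPM (3 counts). *Gzmm* had 3, 4, 2 and 0 UMIs in that order. Neither gene reached the 100 UMIs asked for a ratio in any gate and comparison, so no ratio is given for them.

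**Figure D2:**
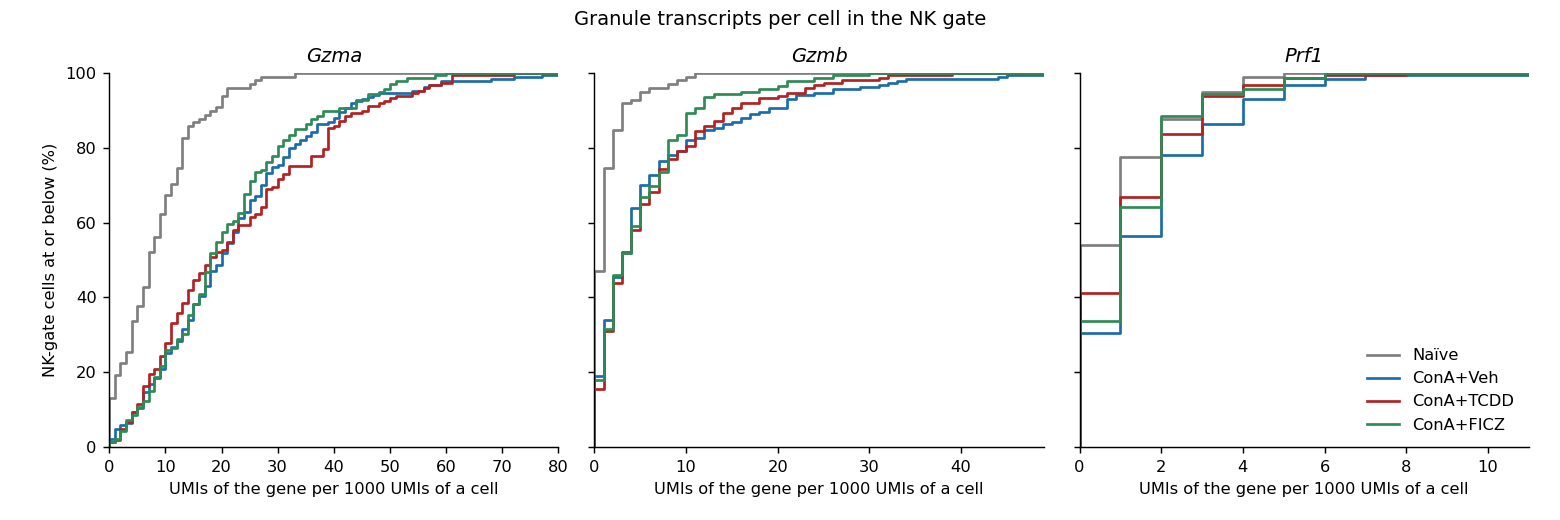
Cumulative share of NK-gated cells (vertical axis, %) with up to a given number of UMIs of *Gzma*, *Gzmb* or *Prf1* per 1000 UMIs of the cell (horizontal axis), 1 line per library. The Naïve line lies left of the ConA lines for *Gzma* and *Gzmb* and, for *Prf1*, left of the ConA+Veh line, with medians of 7 *Gzma* UMIs in Naïve and 20 in ConA+Veh.

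The difference in the NK gate was not limited to a few cells. Since most Naïve cells already had *Gzma*, its share of cells could differ little, while the number of UMIs per cell did. After thinning, a *Gzma* UMI was found in 85 of 98 Naïve cells (86.7%, interval 78.4 to 92.7%) and in 97.8%, 98.6% and 98.6% of cells in the ConA libraries with vehicle, TCDD and FICZ. The median cell held 7 *Gzma* UMIs per 1000 in Naïve and 20, 18 and 18 in the ConA libraries. For *Gzmb* the share with a UMI was 53.1% in Naïve, 80.9% in ConA+Veh, 84.5% in ConA+TCDD and 82% in ConA+FICZ, and without thinning it was 60%, 90.5%, 94.9% and 86.2%. Its median was 1 UMI per 1000 in Naïve and 3 in each ConA library, while the 10% of cells with most *Gzmb* held 44.9% of its UMIs in ConA+Veh. The 10% of cells with most *Gzma* held 24.5% of its UMIs. The share of thinned NK-gated cells with *Prf1* was 45.9% in Naïve, 69.4% in ConA+Veh, 58.8% in ConA+TCDD and 66.2% in ConA+FICZ. For *Srgn* it was 37.8% in Naïve, 64.5% in ConA+Veh, 79.1% in ConA+TCDD and 61.2% in ConA+FICZ, and for *Nkg7* 91.8% in Naïve, 96.7% in ConA+Veh, 91.2% in ConA+TCDD and 94.2% in ConA+FICZ.

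Within the NK gate of Naïve, *Gzma* and *Gzmb* stood in opposite order in 2 types of cell, which was not so in ConA+Veh. Cells with *Eomes*, *Itga2*, *S1pr5*, *Klra8* or *Klra4* and none of *Cd200r1*, *Tmem176a*, *Tmem176b*, *Il7r* and *Cxcr6* were called conventional type (84, 162, 121 and 140 cells), and those with the opposite pattern type 1 innate lymphoid type (16, 12, 10 and 2 cells). In Naïve, *Gzma* was at 10316 CPM in the conventional type and at 326 CPM (163 to 584) in the innate lymphoid type. *Gzmb* showed the opposite order, 1281 CPM (1120.2 to 1459) against 2493 CPM (1989 to 3087). *Prf1* followed *Gzma*, with 961 against 119 CPM. After ConA+Veh, the 12 innate lymphoid type cells held *Gzma* at 10067 CPM against 23192 CPM in the conventional type. *Gzmb* of ConA+Veh had the same order, 4645 CPM (4045 to 5309) against 6566 CPM (6354 to 6784), while in ConA+TCDD it was 7918 against 5708 CPM. These values rest on few cells in every library for the innate lymphoid type. In the conventional type alone, the ratios of ConA+Veh over Naïve were 1.17 (1.10 to 1.24) for *Gzma*, 2.36 (2.16 to 2.56) for *Gzmb*, 0.79 (0.55 to 1.04) for *Prf1*, 1.55 (1.21 to 1.89) for *Srgn* and 0.52 (0.39 to 0.65) for *Nkg7*.

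In the CD8 gate, *Gzmb* was found in more cells than *Gzma*. *Gzmb* was at 389.7 CPM in Naïve (344 to 439.6), 915 CPM in ConA+Veh (886 to 944), 873 CPM in ConA+TCDD (839.7 to 907) and 880.4 CPM in ConA+FICZ (849 to 913), again lowest in Naïve. Its ratio of ConA+Veh over Naïve was 1.23 (1.05 to 1.42). Of the 264 Naïve UMIs, 83 came from 1 cell, and with the highest cell of each library left out the ratio was 1.66. The share of thinned cells with a *Gzmb* UMI was 7.74% in Naïve, 36.7% in ConA+Veh, 40.5% in ConA+TCDD and 31.8% in ConA+FICZ, against 0.38%, 4.46%, 3.47% and 0.803% of B cells. *Gzma* was at 196 CPM in Naïve (164 to 233), 249 CPM in ConA+Veh (234 to 264), 304 CPM in ConA+TCDD (284 to 325) and 164 CPM in ConA+FICZ (151 to 178), with a ratio of 0.34 (0.08 to 0.61). In Naïve 1 cell held 98 of its 133 UMIs, and that cell had 24 UMIs of CD3 genes and 0 of the NK gate genes. Without the highest cell of each library, *Gzma* was at 52.1 CPM in Naïve and 203 CPM in ConA+Veh, and the ratio was 1.96. The size of the *Gzma* difference in CD8 T cells thus turned on 1 Naïve cell, and over all alternative settings its ratio ran from -1.53 to 1.96, so no direction is given for it. The share of thinned CD8 cells with *Gzma* was 3.23% in Naïve, 10.2% in ConA+Veh, 11.8% in ConA+TCDD and 7.27% in ConA+FICZ.

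Some CD8-gated cells carried NK genes, and in ConA+Veh these cells held a large part of the *Gzma* UMIs. In ConA+Veh, 39 of 348 CD8 cells had a UMI of an NK gate gene, against 3 of 157 in Naïve, and they held 488 of the 1046 *Gzma* UMIs of the gate. CD8 cells without such a gene held 117 of 133 *Gzma* UMIs in Naïve, 706 of 898 in ConA+TCDD and 349 of 548 in ConA+FICZ. With all such cells left out, *Gzma* was at 178, 149, 245 and 111 CPM in the 4 libraries in that order, and its ratio of ConA+Veh over Naïve turned to -0.26. Of the 117 Naïve UMIs that stayed, 98 lay in the 1 Naïve cell described above, which had no NK gate gene. The sign of this ratio thus also turned on that cell, and no direction is given for it. *Gzmb* kept 375 CPM in Naïve and 772 CPM in ConA+Veh, a ratio of 1.04. Whether the CD8 cells with NK gate genes were T cells with NK receptors or doublets was not tested.

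CD8 cells were divided into cycling cells (at least 2 of 6 mitotic genes) and cells that did not cycle. The cycling cells numbered 2 in Naïve and 245, 123 and 114 in the ConA libraries. After ConA+Veh *Gzmb* was at 883 CPM in cycling cells and 1074 CPM in the cells that did not cycle. In the latter it was at 384 CPM in Naïve, a ratio of ConA+Veh over Naïve of 1.48 (1.28 to 1.70). The difference in *Gzmb* was therefore also seen in cells that did not cycle. *Gzma* of these cells was at 183 CPM in Naïve, where 1 cell held 98 of 118 UMIs, and 305 CPM in ConA+Veh. *Nkg7* was at 633 CPM in Naïve and 1320.01 CPM in ConA+Veh, a ratio of 1.06 (0.89 to 1.23).

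The other granule genes differed less in the CD8 gate. *Nkg7* was at 642 CPM in Naïve, 866 in ConA+Veh, 731 in ConA+TCDD and 794 in ConA+FICZ, a ratio of ConA+Veh over Naïve of 0.43 (0.29 to 0.58). *Prf1* was at 26.6 CPM in Naïve, 42.1 in ConA+Veh, 25.7 in ConA+TCDD and 21.9 in ConA+FICZ, with 18 UMIs in Naïve and a ratio of 0.66 (-0.04 to 1.45), an interval that takes in 0. *Srgn* was at 558 CPM in Naïve, 621 in ConA+Veh, 823 in ConA+TCDD and 611 in ConA+FICZ, with a ratio of 0.15 (-0.0028 to 0.31). Of 5 tested members, *Gzmb* alone was more than 2-fold higher, where 15.4% of 4958 genes were higher and 5.41% lower by as much, and the share of members past 2-fold was thus close to that of all genes. *Gzmk* had 4, 16, 2 and 5 UMIs and *Gzmm* 5, 15, 2 and 13 in the 4 libraries.

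Pooled over the gate, innate-like T cells had a higher *Gzmb* level than CD8 T cells in each library and little *Gzma* in Naïve. *Gzmb* was at 522 CPM in Naïve (434 to 624), 1468 CPM in ConA+Veh (1369.9 to 1572), 1336 CPM in ConA+TCDD (1218 to 1463) and 1198 CPM in ConA+FICZ (1089 to 1316), a ratio of ConA+Veh over Naïve of 1.49 (1.21 to 1.78). *Gzma* was at 21.4 CPM in Naïve (6.95 to 50), 358 CPM in ConA+Veh (310.1 to 411), 287 CPM in ConA+TCDD (234 to 349) and 207 CPM in ConA+FICZ (163 to 259), and its ratio was 4.06 (2.82 to 5.70). The Naïve value rested on 5 UMIs in 3 cells, and the B gates stood at 2.65 CPM in Naïve and 26.5 CPM in ConA+Veh. Erythroid cells of ConA+Veh were at 381 CPM of *Gzma* (255 to 548), an interval that takes in the innate-like T level of that library. After thinning, *Gzma* was found in 1 of 51 cells in Naïve and 10 of 53 in ConA+Veh. The γδ type carried most of it, with *Gzma* at 718 CPM (609 to 841) in 24 cells of ConA+Veh, against 137 CPM (101 to 182) in 29 cells of NKT type. Of the 154 *Gzma* UMIs of this γδ type, 56 lay in 1 cell. Without the highest cell of each type the levels were 515 and 80.7 CPM. For *Gzmb* the NKT type was at 459.98 CPM in Naïve and 1579 CPM in ConA+Veh, a ratio of 1.78 (1.46 to 2.11), while the γδ type had 0.36 (-0.21 to 0.99). In ConA+Veh 1 NKT type cell held 209 of 553 *Gzmb* UMIs, and 1 γδ type cell held 153 of 276. Without these cells the NKT type was at 1051 CPM and the γδ type at 646 CPM, against 915 CPM in the whole CD8 gate. NKT type cells held *Nkg7* at 964 CPM in Naïve and 528 CPM in ConA+Veh, a ratio of -0.87 (-1.16 to -0.57) on the CPM scale.

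Over the whole innate-like T gate *Nkg7* was at 1011 CPM in Naïve, 873 in ConA+Veh, 901 in ConA+TCDD and 1079 in ConA+FICZ, and *Srgn* at 976 CPM in Naïve, 1394 in ConA+Veh, 1692 in ConA+TCDD and 1378 in ConA+FICZ. Their ratios of ConA+Veh over Naïve were -0.21 (-0.44 to 0.02) and 0.51 (0.30 to 0.73). *Prf1* had between 4 and 12 UMIs per library. Of 4 tested members 2 were more than 2-fold higher, and none lower, against 9.96% higher and 7.68% lower of 1094 genes. NK gate genes were found in 32 of 54 innate-like T cells in Naïve and 19 of 53 in ConA+Veh. Without those cells *Gzma* was at 26.4 and 184 CPM in the 2 libraries, and *Gzmb* at 492 and 997 CPM, ratios of 2.80 and 1.02.

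In the CD4 gate, *Gzmb* was above the B gate in each library and *Gzma* was not, ConA+TCDD apart. Erythroid cells of ConA+Veh were at 158 CPM of *Gzmb* (81.6 to 276) and 105 CPM of *Nkg7* (45.4 to 207). These intervals take in the CD4 levels of that library. *Gzmb* was at 50.1 CPM in Naïve (28 to 82.6), 201 CPM in ConA+Veh (176 to 227), 219 CPM in ConA+TCDD (191 to 251) and 127 CPM in ConA+FICZ (106 to 151), a ratio of ConA+Veh over Naïve of 2.0 (1.25 to 2.86), with 15 UMIs in Naïve. In ConA+Veh 1 cycling cell held 80 of the 247 UMIs and 1 cell that did not cycle held 67, and without the highest cell the level was 138 CPM. After thinning, 2 of 65 Naïve cells and 13 of 108 ConA+Veh cells had a *Gzmb* UMI (3.08% and 12%). *Gzma* had 0 UMIs in Naïve, which allows up to 10 CPM, and 8.12 CPM in ConA+Veh, under the 26.5 CPM of B cells in that library. In ConA+TCDD it was at 145 CPM, but 1 cell held 108 of the 141 UMIs, and without the highest cell the level was 34.3 CPM. In the same gate and library, 19 of 21 *Gzmk* UMIs also came from 1 cell. *Nkg7* was lower after ConA, at 224 CPM in Naïve, 106 in ConA+Veh, 121 in ConA+TCDD and 129 in ConA+FICZ, a ratio of -1.07 (-1.51 to -0.63), while on UMIs per cell uncorrected for depth it was above 0, at 0.25. Naïve CD4 cells with NK gate genes numbered 8 of 67, and with such cells left out *Nkg7* was at 93.3 CPM in Naïve and 88 CPM in ConA+Veh, a ratio of -0.08. The 2-fold difference in *Nkg7* was thus not seen without those cells. The ratio of *Srgn* was 0.74 (0.51 to 0.98). Of 3 tested members, 1 was more than 2-fold higher and 1 lower, against 8.97% and 5.27% of 2051 genes.

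T cells that could not be resolved into CD8 or CD4 held both granzymes, mostly in cells that also had NK gene RNA. *Gzma* was at 349 CPM in Naïve, 855 in ConA+Veh, 957 in ConA+TCDD and 418 in ConA+FICZ, above the CD8 gate in every library. Cells with a UMI of an NK gate gene, 54 of 205 in Naïve and 81 of 238 in ConA+Veh, held 198 of 207 and 1391 of 1506 of these *Gzma* UMIs. They held 1323 of 1802 *Gzmb* UMIs in ConA+Veh. *Gzmb* was at 238 CPM in Naïve, 1023 in ConA+Veh, 1394 in ConA+TCDD and 929 in ConA+FICZ. Their ratios of ConA+Veh over Naïve were 1.29 (1.08 to 1.51) and 2.11 (1.86 to 2.36). *Prf1* was at 40.5 CPM in Naïve, 55.7 in ConA+Veh, 25.2 in ConA+TCDD and 15.2 in ConA+FICZ, and *Nkg7* at 675 CPM in Naïve, 699 in ConA+Veh, 595 in ConA+TCDD and 571 in ConA+FICZ.

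**Figure D3:**
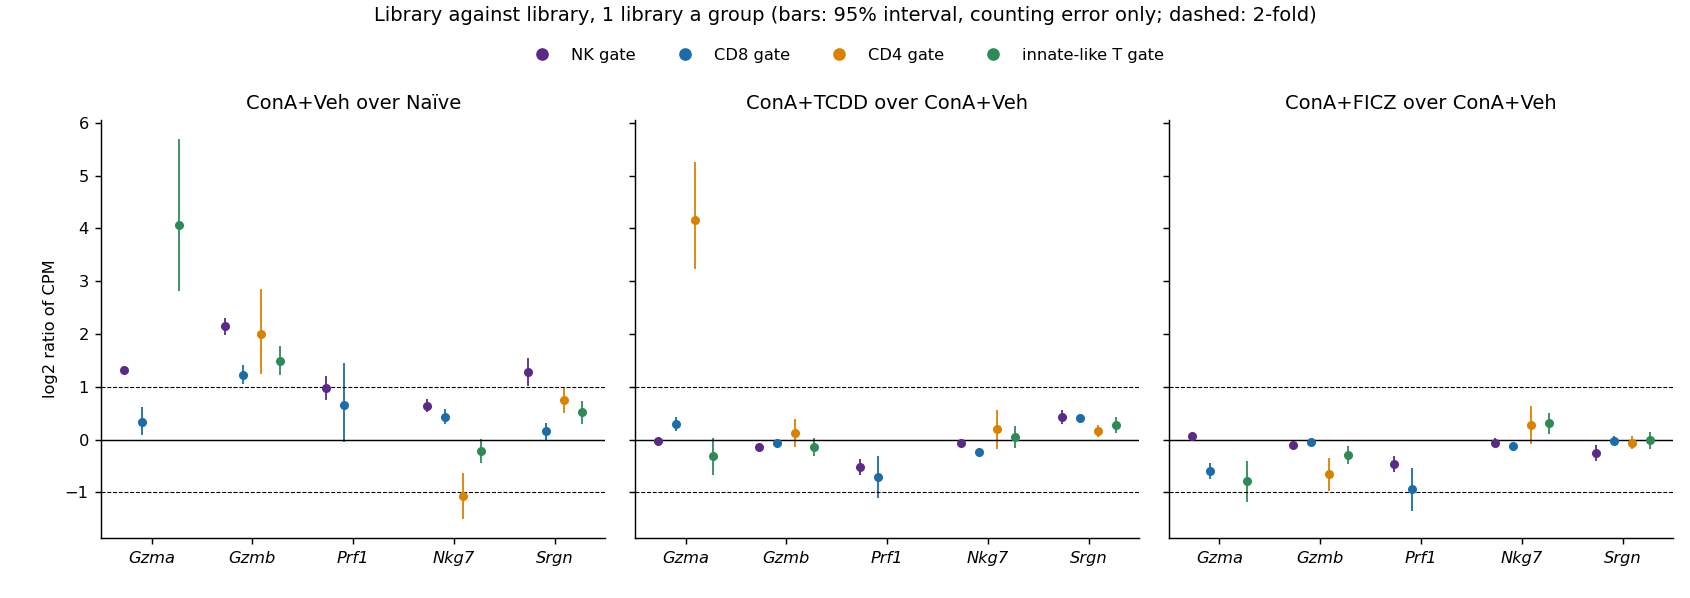
Log2 ratio of CPM (vertical axis) of 5 granule genes between 2 libraries, in 4 gates, for members that reach 100 UMIs over the pair. Bars are 95% intervals of counting error and dashed lines mark 2-fold. After ConA+Veh the *Gzmb* points of all 4 gates lie above 1, and in the TCDD and FICZ panels all points lie within 2-fold except *Gzma* in the CD4 gate, where 1 cell holds 76.6% of the UMIs.

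Under TCDD, granule genes stayed near their ConA+Veh level in NK-gated cells, with *Prf1* lower and *Srgn* higher. The log2 ratio of ConA+TCDD over ConA+Veh was -0.51 (-0.67 to -0.37) for *Prf1* and 0.43 (0.30 to 0.56) for *Srgn*. It was -0.02 (-0.06 to 0.01) for *Gzma*, -0.15 (-0.22 to -0.08) for *Gzmb* and -0.07 (-0.14 to 0.01) for *Nkg7*. None of the 5 reached 2-fold, where 0.311% of 1610 genes did in either direction. The *Prf1* share of thinned cells was 69.4% (62.2 to 76%) with vehicle and 58.8% (50.4 to 66.8%) with TCDD, and these intervals overlap. The *Srgn* share was 64.5% (57.1 to 71.4%) and 79.1% (71.6 to 85.3%), whose intervals do not overlap.

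*Prf1* was lower in CD8 and unresolved T cells of ConA+TCDD too, and *Srgn* was higher in every T cell gate. *Prf1* had a ratio of ConA+TCDD over ConA+Veh of -0.71 (-1.12 to -0.31) in the CD8 gate and -1.14 (-1.69 to -0.61) in unresolved T cells. The unresolved value rested on 98 UMIs in ConA+Veh and 43 in ConA+TCDD. Whether it followed the number of cells with NK gene RNA was not tested, and no share of all genes past 2-fold is given for that gate. In innate-like T it had 9 UMIs in ConA+Veh and 12 in ConA+TCDD, a ratio of 1.10 (-0.27 to 2.52), and in CD4 5 and 3 UMIs. *Srgn* had 0.41 (0.33 to 0.49) in CD8, 0.16 (0.04 to 0.29) in CD4, 0.28 (0.12 to 0.43) in innate-like T and 0.60 (0.52 to 0.68) in unresolved T cells. *Srgn* was thus higher in ConA+TCDD in each lymphocyte gate taken whole, B cells included, where the ratio was 0.21 (0.14 to 0.28). This was not limited to lymphocytes. The *Srgn* ratio was 0.25 (0.11 to 0.40) in neutrophils and 0.10 (0.02 to 0.18) in mononuclear phagocytes. It was 0.92 (0.64 to 1.19) in endothelial cells, 8 of them in ConA+TCDD, and -0.09 (-0.54 to 0.36) in plasmacytoid dendritic cells. Within CD4 the *Srgn* ratio was 0.23 (0.08 to 0.39) in cycling cells and -0.09 (-0.29 to 0.11) in those that did not cycle. Its sign held under 11 of 11 alternatives in NK, 11 of 11 in CD8, 9 of 11 in CD4 and 9 of 11 in innate-like T, and that of *Prf1* under 11 of 11 in NK and 11 of 11 in CD8. In the CD8 gate *Gzma* had 0.29 (0.16 to 0.42), *Gzmb* -0.07 (-0.14 to 0.01) and *Nkg7* -0.24 (-0.32 to -0.17). In innate-like T cells the ratios were -0.32 (-0.68 to 0.03) for *Gzma*, -0.14 (-0.30 to 0.03) for *Gzmb* and 0.05 (-0.16 to 0.25) for *Nkg7*. Without cycling cells this *Gzma* ratio was 1.23, and its sign held under 8 of 10 alternatives. With all gated cells, no tested member passed 2-fold in either gate, against 0.589% of 5942 genes in CD8 and 1.07% of 1216 in innate-like T. In the CD4 gate 1 of 4 tested members did, *Gzma*, at 4.16 (3.24 to 5.25), against 0.54% of 2776 genes. With the highest cell of each library left out, its ratio was 2.39 on fewer than 100 UMIs, and without cycling cells it was -0.54. *Gzmb*, within 2-fold over the whole CD4 gate, was at 0.96 (0.65 to 1.28) in cycling CD4 cells and -3.50 (-4.67 to -2.52) in those that did not cycle, where it was at 378 CPM in ConA+Veh with 67 of 105 UMIs in 1 cell and 33.5 CPM in ConA+TCDD.

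Under FICZ, *Prf1* was lower than in ConA+Veh in several gates. The log2 ratio of ConA+FICZ over ConA+Veh for *Prf1* was -0.47 (-0.62 to -0.32) in NK, -0.94 (-1.36 to -0.54) in CD8 and -1.88 (-2.60 to -1.21) in unresolved T cells. *Gzma* had 0.06 (0.03 to 0.10) in NK but -0.60 (-0.75 to -0.45) in CD8, -0.79 (-1.19 to -0.40) in innate-like T and -1.03 (-1.17 to -0.90) in unresolved T cells. *Gzmb* had -0.10 (-0.17 to -0.03) in NK, -0.06 (-0.12 to 0.01) in CD8, -0.66 (-0.97 to -0.35) in CD4 and -0.29 (-0.46 to -0.12) in innate-like T. *Gzma* and *Gzmb* of the NK gate were thus close to ConA+Veh, while *Gzma* of innate-like T and unresolved T cells was lower. In unresolved T cells *Prf1* had 98 UMIs in ConA+Veh and 23 in ConA+FICZ, and most *Gzma* of ConA+Veh lay in cells with NK gene RNA. Whether the unresolved ratios followed the number of such cells was not tested. The CD8 value of *Gzma* ran from -1.45 to 1.35 over the alternatives, and was above 0 when gates were read after thinning, so no direction is given for it. *Prf1* kept its sign under 11 of 11 alternatives in NK and 11 of 11 in CD8. *Srgn* was at -0.25 (-0.41 to -0.10) in NK and -0.02 (-0.11 to 0.06) in CD8, and *Nkg7* at -0.06 (-0.14 to 0.02) and -0.13 (-0.20 to -0.05). No tested member passed 2-fold in the NK, CD8, CD4 or innate-like T gate, against 1.35%, 1.7%, 2.06% and 1.8% of all genes tested there (1560, 6047, 2862 and 1224). The background in B cells differed as well, with *Gzmb* at -2.01 (-2.60 to -1.47) and *Nkg7* at -1.11 (-1.60 to -0.65). The TCDD and FICZ ratios share the ConA+Veh library, so a value of that library enters both.

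The lower *Prf1* of ConA+TCDD and ConA+FICZ in the NK gate was also present in the conventional type alone, at -0.57 (-0.74 to -0.41) and -0.60 (-0.76 to -0.43). In cycling CD8 cells it was at -0.56 (-1.02 to -0.12) under TCDD and -1.22 (-1.74 to -0.72) under FICZ. In CD8 cells that did not cycle, *Gzma* was at 305 CPM in 103 cells of ConA+Veh, 275 CPM in 120 cells of ConA+TCDD and 112 CPM in 107 cells of ConA+FICZ, while *Gzmb* of the same cells was at 1074, 1164 and 1275 CPM. Of their *Gzma* UMIs in ConA+Veh, 149 of 212 lay in the 18 cells with a UMI of an NK gate gene. *Nkg7* there was at 1320.01, 748 and 949 CPM.

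**Figure D4:**
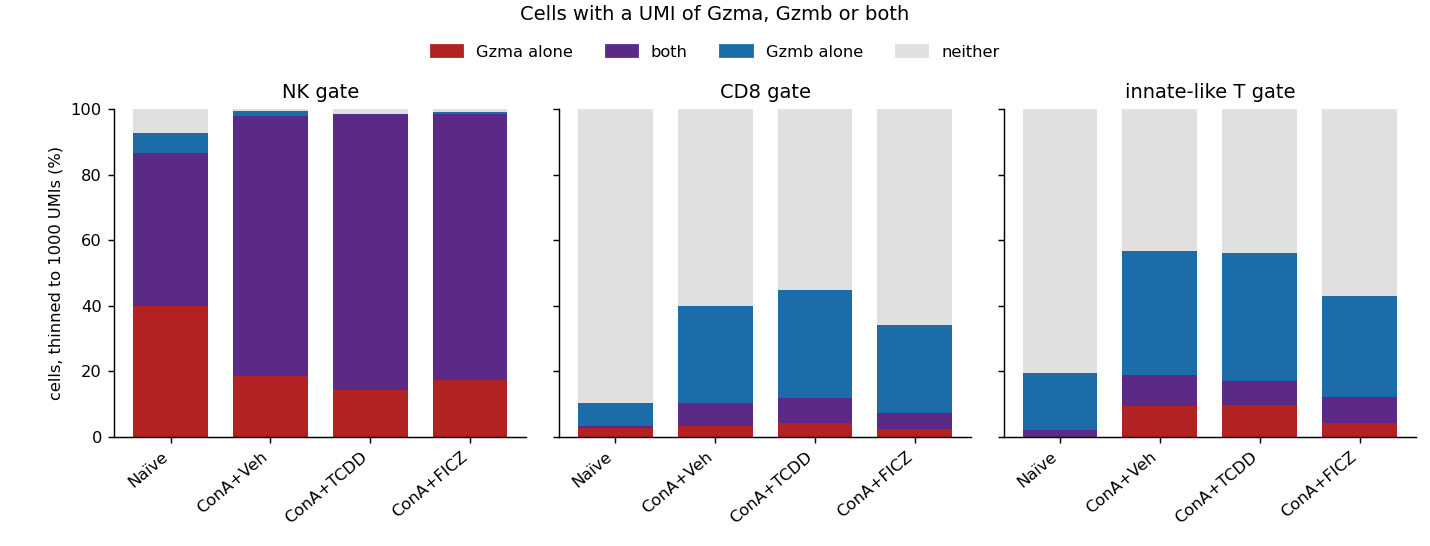
Share of thinned cells (%) with a UMI of *Gzma* alone, *Gzmb* alone, both or neither, by library, in 3 gates. Cells with both make up 79.2% of the NK gate in ConA+Veh, while *Gzmb* alone is the main class with a granzyme in the CD8 and innate-like T gates.

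*Gzma* and *Gzmb* were found together in most NK-gated cells of the ConA libraries. In the CD8, CD4 and innate-like T gates *Gzmb* alone was the commonest of the classes with a granzyme. Unresolved T cells were not counted in this way. In the NK gate both were found in 46.9% (36.8 to 57.3%) of thinned cells in Naïve, 79.2% (72.6 to 84.9%) in ConA+Veh, 84.5% (77.6 to 89.9%) in ConA+TCDD and 81.3% (73.8 to 87.4%) in ConA+FICZ. *Gzma* without *Gzmb* was found in 39.8% of Naïve and 18.6% of ConA+Veh cells, and *Gzmb* without *Gzma* in 6.12% and 1.64%. In the CD8 gate of ConA+Veh, *Gzmb* alone was found in 102 of 343 cells, *Gzma* alone in 11 and both in 24, so most of the few CD8 cells with *Gzma* also had *Gzmb*. In innate-like T cells of ConA+Veh the counts were 20, 5 and 5 of 53. *Gzmb* and *Prf1* were both found in 58.5% of NK-gated cells and 2.33% of CD8 cells of that library. A cell without a UMI at 1000 UMIs may still have expressed the gene.

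**Figure D5:**
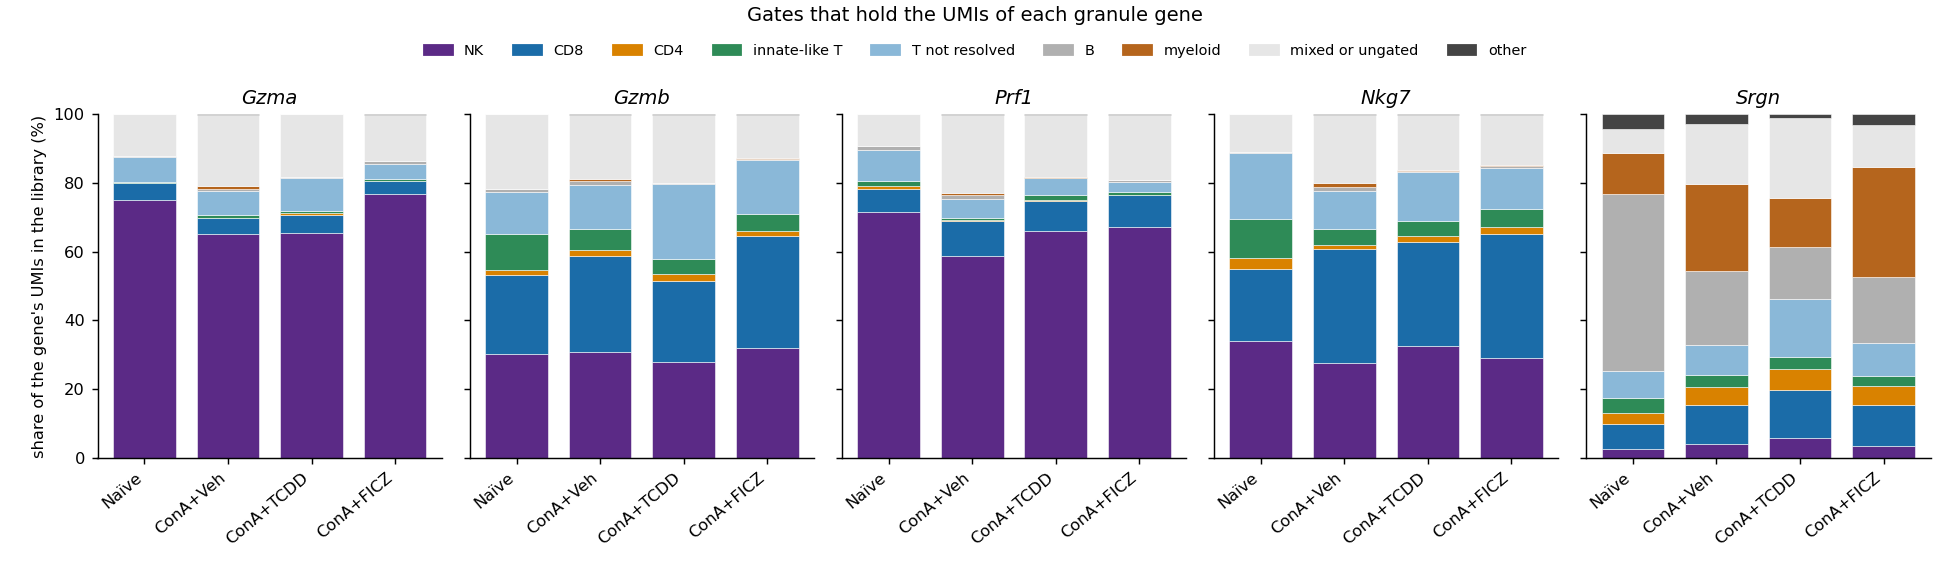
Share of each gene's UMIs in a library (%) that fell in each gate, with myeloid gates joined and mixed and ungated cells joined. *Gzma* and *Prf1* lie mostly in the NK gate (at least 58.9%), *Gzmb* and *Nkg7* are divided between NK and T cells, and *Srgn* is spread over all gates.

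Counted over a whole library, *Gzma* and *Prf1* RNA lay mainly in NK-gated cells although these were few. The NK gate was 5.75%, 7.2%, 8.3% and 6.22% of cells in the 4 libraries and held 75.2%, 65.1%, 65.4% and 76.7% of *Gzma* UMIs. For *Prf1* its share was 71.6%, 58.9%, 65.9% and 67.3%. *Gzmb* was divided, with 27.9% to 32% of its UMIs in NK-gated cells and 23% to 32.7% in CD8 cells. *Nkg7* had 27.7% to 34% in NK and 20.9% to 36.2% in CD8. Cells that reached no gate held 10.1% to 18% of *Gzma*.

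*Srgn* was highest in neutrophils and endothelial cells. Hepatocytes, taken as its background, held 0 UMIs in 22 cells of Naïve and 12 in 182 cells of ConA+FICZ (41.9 CPM), and no cell reached that gate in ConA+TCDD. In ConA+Veh the gate had 9 cells, of which 1 held 95% of the *Srgn* UMIs. Neutrophils had the highest level in every library, 4150.3 CPM in Naïve, 5615 in ConA+Veh, 6694 in ConA+TCDD and 4859.9 in ConA+FICZ, from 23, 97, 39 and 251 cells. Endothelial cells were at 1622 CPM in Naïve, 2269 in ConA+Veh, 4284 in ConA+TCDD and 3253 in ConA+FICZ, the ConA+TCDD value resting on 8 cells. Mononuclear phagocytes were at 980.4 CPM in Naïve, 1728 in ConA+Veh, 1859 in ConA+TCDD and 1154 in ConA+FICZ. B cells were at 1024 CPM in Naïve, 1057 in ConA+Veh, 1219.9 in ConA+TCDD and 763 in ConA+FICZ. Erythroid cells were low, at 132 CPM in ConA+Veh and 171 CPM in ConA+TCDD. The ratio of ConA+Veh over Naïve was 0.82 (0.67 to 0.97) in mononuclear phagocytes, 0.48 (0.26 to 0.71) in endothelial cells, 0.44 (0.22 to 0.65) in neutrophils and 0.04 (-0.02 to 0.11) in B cells, against 1.28 in the NK gate. ConA+FICZ over ConA+Veh was -0.58 (-0.66 to -0.51) in mononuclear phagocytes and -0.47 (-0.53 to -0.41) in B cells.

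The pattern of each gene over gates and libraries was compared with that of 8846 genes, as Pearson's r of log2(CPM + 10) over 37 points, each a gate of at least 30 cells in 1 library. The points share libraries and depth, so r is a description. The 3 most alike genes were *Prf1* (0.93), *Sult2b1* (0.92), *Klra7* (0.91) for *Gzma*, *Klra9* (0.93), *Klrb1a* (0.93), *Gzma* (0.93) for *Prf1*, *Nkg7* (0.96), *Ctsw* (0.92), *Il2rb* (0.92) for *Gzmb* and *Ctsw* (0.97), *Gzmb* (0.96), *Il2rb* (0.95) for *Nkg7*. *Gzma* and *Prf1* were thus among each other's nearest genes, and so were *Gzmb* and *Nkg7*, while *Gzma* and *Gzmb* had r = 0.86. *Srgn* was most like *Gnai3* (0.87), *Sde2* (0.87), *Gnai2* (0.86), and its r with the other members lay between -0.09 and 0.03. For the sparse *Gzmk* and *Gzmm* the highest r was 0.68 and 0.64, with *Sult2b1* and *Epm2aip1*.

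A list of 36 other genes of the granule pathway was set with earlier results of these data known. It held other granzymes, granule proteases, protease inhibitors, genes of granule transport and release, of glycosaminoglycan synthesis and regulators. In the NK gate 12 of them had at least 100 UMIs in Naïve and ConA+Veh together, of which 2 were more than 2-fold higher and 1 lower. Of all genes counted that often, 8.17% were higher by as much and 5.94% lower. *Serpinb6b*, an intracellular serine protease inhibitor, had 1.21 (0.85 to 1.58), from 305 to 705 CPM. *Cst7*, the cystatin that restrains the granzyme-activating cathepsin C, had 1.03 (0.61 to 1.48), from 223 to 455 CPM. *Tbx21*, the T-box factor T-bet, was lower, at -1.13 (-1.72 to -0.54), from 189.7 to 86.5 CPM. The median of the tested genes was -0.08, against 0.13 for all genes.

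In the CD8 gate 3 of 16 were higher and none lower, where 15.4% of all genes tested were higher by as much and 5.41% lower. The share of listed genes that were higher was thus close to that of all genes. *Cst7* had 1.30 (0.91 to 1.72), from 82.7 to 204 CPM and *Serpinb6b* 1.10 (0.63 to 1.62), from 56.1 to 120.5 CPM. *Rab27a*, the GTPase that docks granules, had 1.01 (-0.02 to 2.26), from 11.8 to 23.8 CPM, an interval that takes in 0. In the CD4 gate *Serpinb6b* was higher at 1.42 (0.49 to 2.52), from 33.4 to 89.3 CPM, and *Ctsw*, a protease of cytotoxic cells, was lower at -1.22 (-1.80 to -0.61), from 130.3 to 56 CPM, of 9 tested. Of all genes tested in that gate, 8.97% were higher by as much and 5.27% lower. In innate-like T cells *Cst7* was higher at 1.18 (0.50 to 1.93), from 89.9 to 204 CPM, and *Ctsw* lower at -1.40 (-1.76 to -1.05), from 604 to 228 CPM, of 9 tested. There 9.96% of all genes tested were higher by as much and 7.68% lower. For ConA+TCDD over ConA+Veh no listed gene passed 2-fold in any of the 4 gates, with 9 to 20 tested. For ConA+FICZ 1 did, *Lyst*, a regulator of lysosome-related organelles, in CD8 cells at -1.03 (-1.42 to -0.66), from 49.7 to 24.3 CPM. Of all genes tested, 0.311% passed 2-fold for ConA+TCDD in NK, 0.589% in CD8, 0.54% in CD4 and 1.07% in innate-like T cells. For ConA+FICZ these shares were 1.35%, 1.7%, 2.06% and 1.8% in the same order.

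Of the chromosome 14 granzymes beside *Gzmb*, *Gzmc* had 28 UMIs in 14 cells of Naïve, 256 in 41 of ConA+Veh, 105 in 26 of ConA+TCDD and 45 in 27 of ConA+FICZ. *Gzmf* had 0, 3, 11 and 2 UMIs. *Gzmd*, *Gzme*, *Gzmg* and *Gzmn* had 0 UMIs in all libraries.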

How the data were processed

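The authors deposited UMI counts per gene and cell, made per the file headers with Cell Ranger 3.0.2, and the labels name the mouse build mm10. All cells of the 4 libraries (1 per group) were used, at medians of 2161 to 3984 UMIs per cell. Cells were gated by marker UMIs, with none of the 7 genes as a marker. Cells that reached 2 lineages were kept apart as mixed, and no doublet caller was run. A division of T cells by naive type, and the setting that left such cells out, are not reported here. UMIs of a gene were summed per gate and library and divided by all UMIs of the gated cells (CPM), with an exact 95% Poisson interval. Shares of cells used cells thinned to 1000 UMIs, leaving out shallower ones, with exact Clopper-Pearson intervals. Log2 ratios had exact conditional binomial intervals, and past 2-fold meant an absolute log2 ratio of at least 1 over genes that reached 100 UMIs in the compared libraries. Intervals and zero-count limits (3 counts) cover counting error only. With 1 library per group no test was possible.

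Named genes were the 7 members, up to 3 pathway genes past 2-fold per gate and comparison, and the 3 genes most alike in pattern. *Gzmc* and *Gzmf* were named from the fixed list. Members and lists were chosen with earlier results of these data known, and leaving out shared barcodes, the highest cell or T cells with NK gate genes, and limiting NK cells to the conventional type, after seeing the data. Python 3.11.15, numpy 2.4.6 and scipy 1.17.1 were used, and the ratios were checked on simulated counts.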

Additional observations from a re-analysis of the deposited data

How the results depend on the processing

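Of the 12 counts of members past 2-fold (4 gates, 3 comparisons), all stayed at the reported number when NK and T cells were gated on other CD3 limits, when ribosomal protein and mitochondrial genes left the total, and when cells with a barcode of another library were left out, and the 3 NK counts stayed when only the conventional type was kept. Over all alternatives 30 of 144 recomputed counts moved. In the NK gate the count for ConA+Veh over Naïve was 5 at 1.5-fold and 5 by mean UMIs per cell uncorrected for depth. In the CD8 gate the same comparison gave 2 at 1.5-fold, 2 with gates read after thinning to 1000 UMIs, 3 by mean UMIs per 10000 over cells, 5 uncorrected for depth, 2 without cycling cells and 2 without the highest cell. In the CD4 gate it gave 0 with thinned gates, and 1 each by the mean per 10000, without the highest cell and without cells with NK gate genes. In innate-like T it gave 0 with thinned gates, 4 uncorrected, and 1 each without cycling cells and without cells with NK gate genes. In these falls, members went under the 100 UMIs over both libraries asked for a ratio and were not counted. With thinned gates *Gzma* had 2 UMIs in Naïve and 0 in ConA+Veh, and *Gzmb* 35 and 61. *Gzma* had 5 and 66 UMIs without cycling cells, and 3 and 73 without cells with NK gate genes. The lowest *Gzmb* ratio over 11 alternatives was 1.02, and the lowest *Gzma* ratio over 10 was 2.60. ConA+TCDD over ConA+Veh gave 1 at 1.5-fold in CD8, 1 without cycling cells in innate-like T (*Gzma*, at 1.23), and 0 without the highest cell in CD4. ConA+FICZ over ConA+Veh gave 2 at 1.5-fold in CD8, and 1 there with thinned gates, without cells lacking *Cd52*, without cycling cells and without cells with NK gate genes. In CD4 it gave 1 at 1.5-fold and 1 without cycling cells, and in innate-like T 1 at 1.5-fold, 1 with cells under 200 genes or over 10% mitochondrial UMIs left out, 1 uncorrected and 1 without cycling cells. The cause of the other moves was not tested. The ratio of *Nkg7* in CD4 cells for ConA+Veh over Naïve turned to 0.25 uncorrected for depth, and that of *Gzma* in CD4 cells for ConA+TCDD over ConA+Veh to -0.54 without cycling cells. Without the depth correction the median log2 ratio of all genes in CD8 cells moved by 1.49 for ConA+Veh over Naïve, so that setting also carries the difference in depth.

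No paired analysis was possible because each group was 1 library, and for the same reason leaving out a library was not done. Differences between mice, between libraries and between groups are not told apart by these data. Gates read at raw depth ask for the same number of marker UMIs in each library, and Naïve was the shallowest. *Gzmk*, *Gzmm* and, in CD4 and innate-like T cells, *Prf1* were too rare for a ratio at this depth.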
